A study of Mus musculus with 24 samples.

Results

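RNA from the cortical ventricular zone of Prdm16 mutant mouse embryos at E13.5 was compared with that of wild type embryos 2 days younger, at E11.5. The question was whether the mutant tissue resembles younger wild type tissue, and which genes take a level that neither wild type day shows. The comparison covers every gene with a value of 10 or more in at least 3 of its 6 libraries, which was the case for 15854 of the 22529 genes in the table. All of these genes also passed the filter of the test, which 17518 genes passed in all. At the edge of the rule, the 430 genes with exactly 3 such libraries had a median mean value of 11.1 over the 6 libraries, and the 492 genes left out with exactly 2 had 8.53.

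The mutant group was E13.5 Prdm16 cKO (conditional knockout) with 3 libraries, set against 3 libraries of E11.5 WT (wild type). A further 3 libraries of E13.5 WT gave the change that wild type tissue undergoes over the same 2 days, and 3 cKO and 3 WT libraries of E15.5 gave a reading in other embryos. All embryos were of the C57BL/6 strain, and the tissue was ventricular zone dissected from the embryonic cortex. Neither the Cre driver and the deleted exons nor the number of embryos in a library is given in the sources used here, so p-values measure the spread between libraries, which may be technical. The ventricular zone holds the radial glia, the dividing progenitors of the cortex. As development proceeds these cells change the genes they express and the types of neurons they produce, first those of the deep layers and later those of the upper layers, and they turn to making glia last. Prdm16 encodes a zinc-finger transcriptional regulator of the PRDM family that is expressed in radial glia.

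Values are normalized reads per gene and library, differences are on the log2(value + 1) scale with their SE, and a gene was called when its adjusted p in limma was below 0.05. Prdm16 read 1819, 1936 and 1784 in E13.5 cKO, against 5329, 6369 and 4772 in E13.5 WT and 2206, 2030 and 2134 in E11.5 WT. Its level in the mutant was thus near that of E11.5 WT (-0.20 ± 0.14, adjusted p = 0.33) and below that of E13.5 WT (-1.56 ± 0.14, adjusted p = 1.8e-06). These totals include reads from outside the deleted part and do not check the deletion itself. Progenitor genes were abundant in all 9 libraries of E13.5 cKO, E13.5 WT and E11.5 WT, with Pax6, a transcription factor of dorsal progenitors, at 7827, 7093 and 7136 in E13.5 cKO, against 8696, 10317 and 8073 in E13.5 WT and 6966, 8561 and 7914 in E11.5 WT.

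Some libraries stood apart. In both groups compared, library C lay near a weighted sum of libraries A and B, with shares of 44.1% and 53.1% in E13.5 cKO and 31.1% and 68.0% in E11.5 WT. The median squared residual of these sums was 0.781 and 0.699 times counting noise, where noise alone gives 0.455, and the libraries of E13.5 WT gave at least 3.60. Xist, transcribed from the inactive X, and the Y-linked Ddx3y were each present in only one of A and B and both present in C in these 2 groups, whereas all 3 libraries of E13.5 WT had Ddx3y and almost no Xist. In all, 5 groups of the series had such a C library, and the counts below are also given without those 5 libraries, which leaves 2 libraries in each of the groups compared. The recovered reads numbered 31588681 to 33594289 in E13.5 cKO and 33854831 to 36755563 in E11.5 WT.

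The mutant tissue at E13.5 lay between the WT days. Each library was placed on the line between the mean values of E11.5 WT, set to 0, and of E13.5 WT, set to 1, over the 9106 members whose level changed between those days in WT. The E13.5 cKO libraries A, B and C stood at 0.375, 0.834 and 0.621, a mean of 0.610 ± 0.230 (SD, n = 3). The WT libraries, each placed on a line made without it, stood at 0.989, 0.803 and 1.12 at E13.5 and at 0.165, -0.0602 and -0.0226 at E11.5. No mutant library fell among those of E11.5 WT, and library B fell within the range of E13.5 WT. Without the 5 C libraries the mutant mean was 0.607. In bulk tissue, fewer cells of a type and less RNA per cell cannot be told apart, so the position is that of the dissected tissue and not of a cell. The cKO libraries of E11.5 stood at -0.156, 0.255 and -0.0961, around the E11.5 WT libraries.

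**Figure D1:**
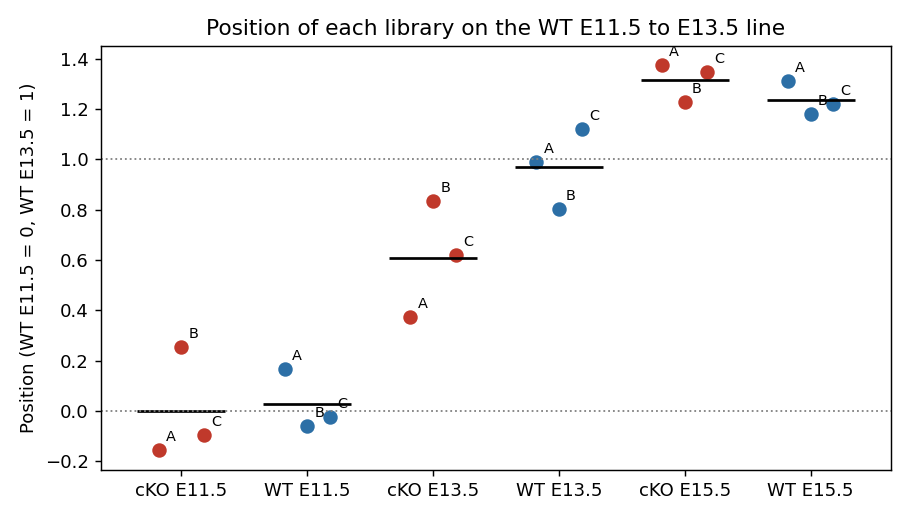
Position of each library (A, B, C) on the line from the mean of E11.5 WT (0) to the mean of E13.5 WT (1), over the 9106 genes that changed between them. Points are libraries, red for cKO and blue for WT, and bars are means. The E13.5 cKO libraries spread from 0.375 to 0.834, and the E15.5 libraries of both genotypes lie above 1.

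The spread between the mutant libraries exceeded that within either WT group, and it was wider over the genes that rise in WT than over those that fall. Over the genes that rose in WT, libraries A, B and C of E13.5 cKO stood at 0.261, 0.802 and 0.575, and over those that fell at 0.556, 0.887 and 0.695. Among the 1663 genes that rose in WT by at least 1 on the log2 scale, the median share of the WT rise present in the mutant mean was 49.2%, and it was 19.3% in library A, 78.1% in B and 52.1% in C. Among the 838 genes that fell by at least that much, the mutant mean showed 71.8% of the fall, with 64.8% in A, 82.6% in B and 69.3% in C. In each library the fall was thus the more complete. The WT libraries chose these genes and also set the positions and shares, so these values are a description and not a test.

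Other measures differed between the same libraries. The summed level of 18 glycolysis and hypoxia genes was 304892, 150377 and 208880 in E13.5 cKO libraries A, B and C, against 160175, 236229 and 145403 in E13.5 WT and 273455, 240963 and 249833 in E11.5 WT. At E13.5 the library with the highest sum had the lowest position in both genotypes. The summed level of 12 meninges and mesenchyme genes was 17566, 44808 and 33858 in E13.5 cKO, lowest in library A, against 28428, 44904 and 17846 in E13.5 WT. Their part in the positions was not tested, nor was that of the embryo's sex.

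Gene by gene, 2880 members differed between E13.5 cKO and E11.5 WT, 1719 higher and 1161 lower in the mutant. Over all 17518 genes tested, 17.4% were called in this comparison, 10.4% higher and 6.94% lower. WT tissue changed in far more genes over the same days. There, 9106 members were called for E13.5 WT minus E11.5 WT (4695 higher and 4411 lower, with 55.3% called over all genes tested, 29.6% higher and 25.7% lower). The mutant also differed from WT of its own day in 3759 members, 1699 higher and 2060 lower, with 22.3% called over all genes tested, 9.79% higher and 12.5% lower. The 3 comparisons share libraries, so their counts are not independent. Without the 5 C libraries E13.5 cKO minus E11.5 WT called 633 members (398 higher and 235 lower, with 3.77% called over all genes tested, 2.4% higher and 1.37% lower). E13.5 WT minus E11.5 WT then called 6409 (3529 higher and 2880 lower, with 38.8% called over all genes tested, 22.1% higher and 16.6% lower). E13.5 cKO minus E13.5 WT then called 445 (136 higher and 309 lower, with 2.64% called over all genes tested, 0.788% higher and 1.85% lower). With only the groups compared in the fit, limma called 988 members for E13.5 cKO minus E11.5 WT and 624 for E13.5 cKO minus E13.5 WT. The counts also depended on single mutant libraries. E13.5 cKO minus E13.5 WT called 1492 members without library A and 5589 without library B, and E13.5 cKO minus E11.5 WT called 4913 members without library A and 1763 without library B.

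Among the 9106 members that changed in WT, the mutant level could be bounded on one side only for a minority. A gene was taken to be held near E11.5 when the whole 95% interval of E13.5 cKO minus E11.5 WT lay within a 1.5-fold change, and to have reached E13.5 when that of E13.5 cKO minus E13.5 WT did. By this measure 1580 (17.4%) were held, 973 (10.7%) had reached the WT level of their own day, 2583 (28.4%) met both bounds, and 3970 (43.6%) met neither. Of the 2501 genes that changed in WT by at least 1, 54 were held, 71 had reached E13.5 and 2376 met neither bound. Without the 5 C libraries 1022 were held and 582 had reached E13.5, among 6409. With all libraries but E13.5 cKO A, 794 were held and 2004 had reached E13.5, and with all but B, 2723 and 560. These counts describe the genes and are not a test, because the WT libraries chose them.

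**Figure D2:**
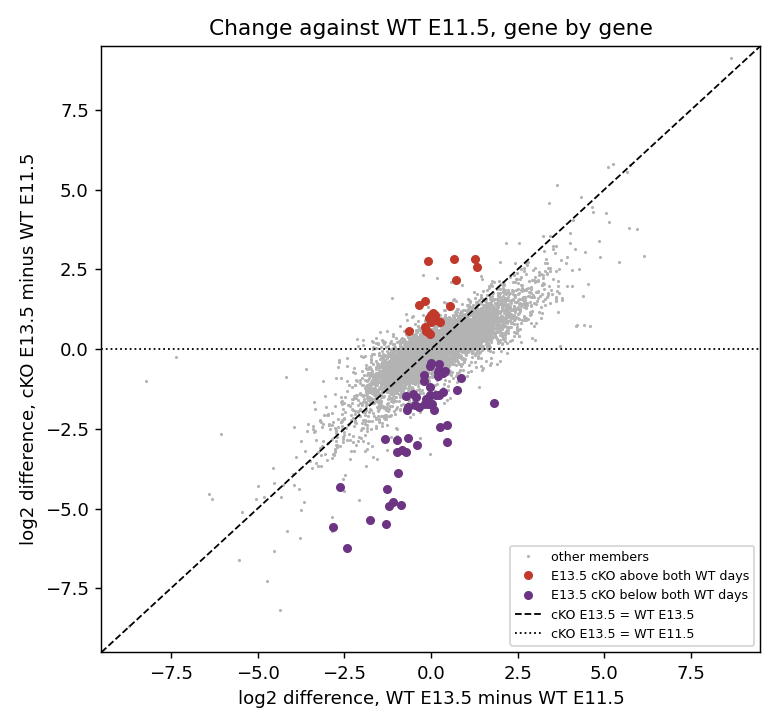
Each point is one of the 15854 genes: the log2 difference of E13.5 WT (horizontal) and of E13.5 cKO (vertical) from E11.5 WT. Both axes share the E11.5 WT libraries. Genes on the dotted line equal E11.5 WT, genes on the dashed line equal E13.5 WT, and the coloured points are the 21 genes above and the 54 below both WT days.

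The genes held near E11.5 that rose most in WT are given first. Ap3b2, which encodes a neuronal subunit of the AP-3 vesicle coat, read 1008, 1188 and 1077 in E13.5 cKO, against 3648, 3679 and 3597 in E13.5 WT and 779.9, 1066 and 980.4 in E11.5 WT. Kif26b, an atypical kinesin, read 831, 1236 and 1041 in E13.5 cKO, against 4101, 3926 and 3636 in E13.5 WT and 935, 1041 and 1033 in E11.5 WT. Robo2, a receptor for Slit guidance cues, read 1717, 2641 and 2130 in E13.5 cKO, against 5399, 5510 and 7303 in E13.5 WT and 2318, 2200 and 2229 in E11.5 WT. For each of these the mutant values overlapped E11.5 WT and lay below every library of E13.5 WT. Their differences from E11.5 WT were 0.22, 0.03 and -0.08 (adjusted p in limma of 0.18, 0.93 and 0.80) and their differences from E13.5 WT -1.74, -1.93 and -1.50 (adjusted p in limma of 1.3e-08, 3.6e-06 and 5.4e-05). Sema5a, a semaphorin, Cadm2, a synaptic adhesion molecule, and Plekha6 were held likewise, with differences from E13.5 WT of -1.19, -1.47 and -1.51.

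Among the held genes that fell most in WT were Frzb and Lef1, both of WNT signalling. Frzb encodes a secreted frizzled-related protein that binds WNT ligands, and read 616, 581 and 609.6 in E13.5 cKO, against 335, 289.7 and 243 in E13.5 WT and 619.7, 665 and 669 in E11.5 WT. Lef1, a transcription factor that acts with beta-catenin, read 1718, 1306 and 1582 in E13.5 cKO, against 839.9, 987 and 634 in E13.5 WT and 1987, 1259 and 1624 in E11.5 WT. Both stood above every E13.5 WT library in the mutant, by 1.07 and 0.92 (adjusted p in limma = 0.00077 and 0.0071, and 0.018 and 0.08 without the 5 C libraries). Saxo2, AW047730, Tmem47 and Pno1, the last of which was also lower than in E11.5 WT by a called difference of -0.36, stood above E13.5 WT as well, with differences from E13.5 WT of 1.08, 1.24, 0.87 and 0.63.

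Other genes had reached the E13.5 level. Sstr2, a somatostatin receptor, read 2537, 2448 and 2467 in E13.5 cKO, against 3242, 1871 and 3540 in E13.5 WT and 582, 740.1 and 666 in E11.5 WT. Rgs20, a regulator of G protein signalling, read 595, 1096 and 939 in E13.5 cKO, against 1017, 813 and 915 in E13.5 WT and 183, 291 and 227 in E11.5 WT. Cbs, an enzyme of cysteine synthesis, read 364, 439.9 and 364 in E13.5 cKO, against 387, 305 and 337 in E13.5 WT and 93.7, 96.5 and 72.0 in E11.5 WT. All 3 rose in the mutant above E11.5 WT (1.91, 1.88 and 2.15, adjusted p in limma of 1.9e-07, 2.1e-06 and 1.3e-09), and they also passed without the 5 C libraries. Among genes that fall in WT, Car2, a carbonic anhydrase, differed from E11.5 WT by -2.05 in the mutant and -2.08 in WT, and the imprinted gene Mest by -1.62 and -1.49. Slc6a17, Slc27a1 and D2hgdh rose and Pcbd1, Pdzph1 and Slc25a37 fell to within the bound of E13.5 WT.

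Lists of genes for cell types and pathways were compared between E13.5 cKO and E11.5 WT, groups that differ in both age and genotype. They are described by counts of called members and by medians, beside a median of -0.0072 over all members for E13.5 cKO minus E11.5 WT, -0.0297 for E13.5 WT minus E11.5 WT and -0.000221 for E13.5 cKO minus E13.5 WT. The shares of all genes tested to read the counts against are 10.4% higher and 6.94% lower for E13.5 cKO minus E11.5 WT, 29.6% and 25.7% for E13.5 WT minus E11.5 WT, and 9.79% and 12.5% for E13.5 cKO minus E13.5 WT. Without the 5 C libraries they are 2.4% and 1.37% for the first of these.

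Of the early progenitor genes, 5 did not pass in E13.5 cKO against E11.5 WT and the others were lower. Of 12 such genes, 7 fell and none rose in E13.5 cKO against E11.5 WT (median -0.414), and 7 fell in E13.5 WT (median -0.547). When the 5 C libraries were left out, 3 fell in the mutant. Hmga2, a chromatin protein of early stem cells, read 16668, 4160 and 9296 in E13.5 cKO, against 5600, 10530 and 4977 in E13.5 WT and 36194, 28816 and 31384 in E11.5 WT. Library A of the mutant was higher than every E13.5 WT library, and B lower. Lin28a, an RNA-binding protein that blocks let-7 maturation, was all but absent, at 0, 0.978 and 0 in E13.5 cKO, against 0.961, 8.49 and 0 in E13.5 WT and 186, 89.96 and 105 in E11.5 WT (adjusted p in limma = 5.9e-07 against E11.5 WT, with no fold given because the mutant group held 1 read). Lin28b, its paralog, and Trim71 differed from E11.5 WT by -1.41 and -2.16, and Trim71 did not pass without the 5 C libraries. Sall4, a zinc-finger factor of the same list, read 81.7, 216 and 163 in E13.5 cKO, against 489, 558 and 352 in E13.5 WT and 431, 320.0 and 381 in E11.5 WT. It was below each WT day taken singly (-1.39 ± 0.36 and -1.68 ± 0.36, adjusted p in limma = 0.01 and 0.0039), and neither difference passed without the 5 C libraries.

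Late progenitor and gliogenic genes rose in part. Of 16, 8 rose and 1 fell in E13.5 cKO against E11.5 WT (median 0.386), whereas 10 rose and none fell in E13.5 WT (median 1.10). In the mutant, 6 rose without the 5 C libraries. The nuclear factor I genes, which promote the turn to gliogenesis, were higher than in E11.5 WT both in E13.5 cKO and in E13.5 WT. Nfix read 5499, 14690 and 10285 in E13.5 cKO, against 16266, 8558 and 13238 in E13.5 WT and 2803, 1289 and 1691 in E11.5 WT, with the mutant libraries 2.36 ± 0.32 above E11.5 WT (adjusted p in limma = 4.5e-05). Nfia and Nfib rose by 1.38 and 1.77, against 1.59 and 2.23 in WT. Zbtb20, a zinc-finger repressor of later progenitors, did not follow, with 229, 799 and 460.0 in E13.5 cKO, against 1735, 2270 and 2971 in E13.5 WT and 592, 653 and 578 in E11.5 WT. Every mutant library stood below every E13.5 WT library (-2.37 ± 0.35, adjusted p in limma = 0.00028, 0.016 without the 5 C libraries). Ptprz1, a receptor phosphatase of radial glia, was the one member that fell (-0.68 ± 0.18, adjusted p in limma = 0.011, 0.16 without the 5 C libraries). None of 16 core radial glia genes was called against E11.5 WT by limma with all libraries or without the 5 C libraries.

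Some genes of intermediate progenitors and deep-layer neurons were higher than in E11.5 WT. Of 12 intermediate progenitor genes, 5 rose and none fell against E11.5 WT (median 0.488), and 5 were lower than in E13.5 WT, though none without the 5 C libraries. Eomes, the transcription factor that marks these cells, read 10830, 10357 and 10379 in E13.5 cKO, against 14851, 12588 and 14715 in E13.5 WT and 5999, 7372 and 6739 in E11.5 WT, so that the mutant libraries lay between those of the WT days without overlap. Of 12 deep-layer genes, 7 rose and 1 fell (median 0.594, against 0.614 in WT). Against E13.5 WT, 5 of these 12 were lower and 1 was higher in the mutant (median -0.47). Of all genes tested, 12.5% were called lower and 9.79% higher there. Without the 5 C libraries 2 of the 12 were lower than in E13.5 WT and none higher. Neurod6, a transcription factor of excitatory neurons, rose by 2.42 ± 0.26 (adjusted p in limma = 3.0e-06), against 3.11 in WT. With the 5 C libraries left out, 3 of the intermediate progenitor genes and 4 of the deep-layer genes rose and 1 deep-layer gene fell against E11.5 WT.

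Upper-layer genes were lower than in WT of the same day. Of 11 such genes, 2 rose and 3 fell in E13.5 cKO against E11.5 WT (median 0.102), while 9 rose and none fell in E13.5 WT (median 0.912). Against E13.5 WT, 10 of the 11 were lower in the mutant (median -0.988), and 6 without the 5 C libraries, where 12.5% and 1.85% of all genes tested were called lower. Cux2, a homeobox gene of upper-layer neurons and their progenitors, read 1135, 919.8 and 974 in E13.5 cKO, against 1757, 1577 and 2872 in E13.5 WT and 1093, 812 and 927 in E11.5 WT. Every mutant library lay below every E13.5 WT library (-0.99 ± 0.18, adjusted p in limma = 0.0013, 0.043 without the 5 C libraries), and the mutant libraries overlapped E11.5 WT. The 2 that rose were Unc5d and Bhlhe22, by 2.52 and 2.44, and those that fell were Pou3f1, Pou3f2 and Rorb.

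**Figure D3:**
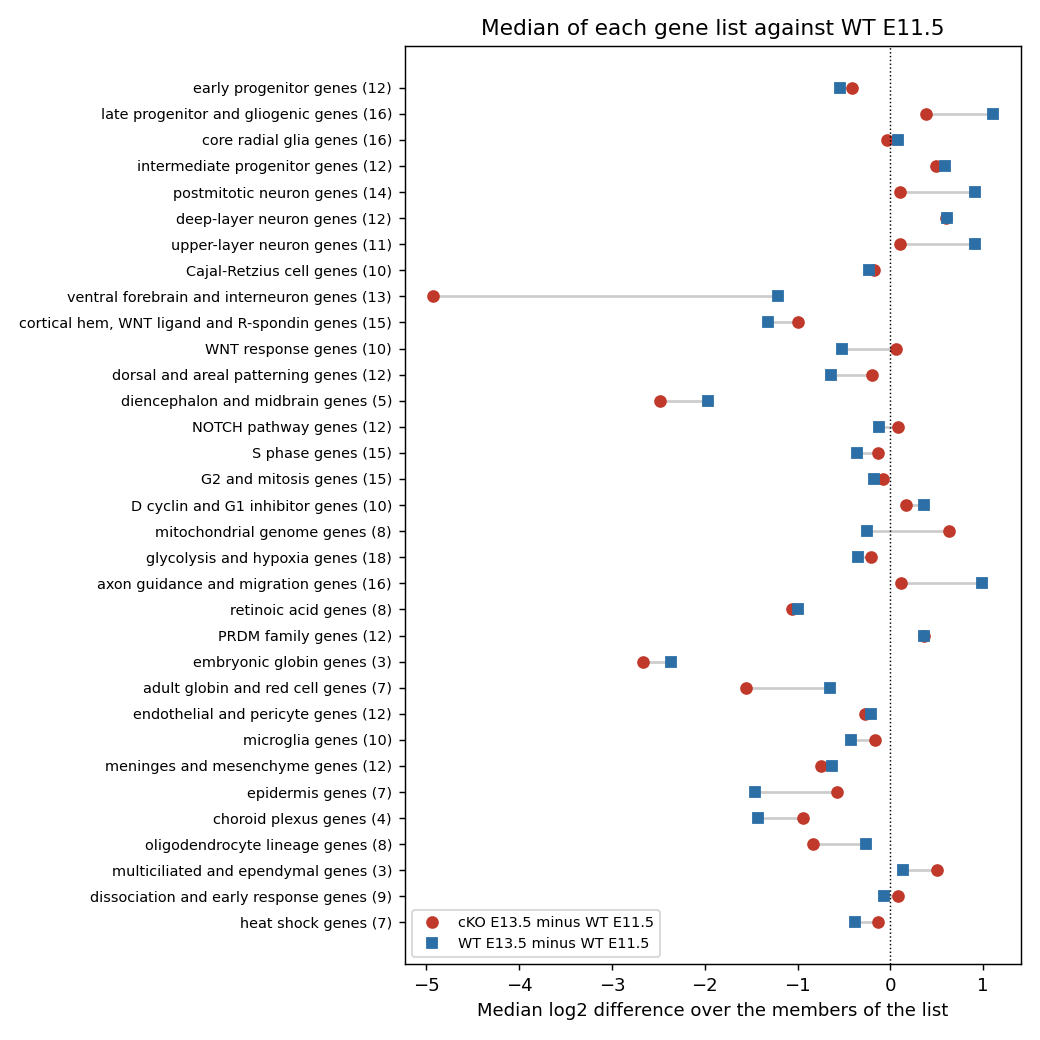
Median log2 difference from E11.5 WT over the members of each gene list, for E13.5 cKO (red circles) and E13.5 WT (blue squares), with the number of members in brackets. Both use the E11.5 WT libraries. The upper-layer genes stand at 0.102 in E13.5 cKO and 0.912 in E13.5 WT, and the ventral forebrain genes at -4.93 and -1.21.

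Postmitotic neuron genes and axon guidance genes rose in fewer members than in WT, a difference in counts that was not tested. Of 14 postmitotic neuron genes, 4 rose and 2 fell against E11.5 WT (median 0.107), against 8 risen and none fallen in WT (median 0.909), and without the 5 C libraries 1 rose in the mutant. Dcx, which encodes doublecortin of migrating neurons, read 9480, 16239 and 12419 in E13.5 cKO, against 27542, 25844 and 44376 in E13.5 WT and 11562, 12871 and 12160 in E11.5 WT. Of 16 axon guidance and migration genes, 6 rose and 3 fell in the mutant (median 0.117), against 10 and 2 in WT (median 0.987), and without the 5 C libraries 4 rose and none fell. Slit1, a repellent cue, rose by 2.01, against 3.20 in WT.

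Several replication genes and 1 WNT ligand were higher than in WT of the same day. Of 15 S phase genes, 1 fell against E11.5 WT (median -0.132), whereas 13 fell in WT (median -0.360), and 7 were higher in the mutant than in E13.5 WT, where 9.79% of all genes tested were called higher. Without the 5 C libraries none of the 15 was called higher by limma. Pcna, the sliding clamp of replication, read 16631, 10993 and 13054 in E13.5 cKO, against 10627, 10197 and 8751 in E13.5 WT and 13828, 15423 and 14720 in E11.5 WT. Of 15 genes of the cortical hem, WNT ligands and R-spondins, 4 fell in the mutant and 8 in WT (medians -1.0 and -1.32), where 6.94% and 25.7% of all genes tested were called lower, and without the 5 C libraries none fell in the mutant and 5 fell in WT. The clearest departure was Wnt8b, a WNT ligand of the medial cortical wall, at 510.1, 690.1 and 549 in E13.5 cKO, against 4.80, 9.44 and 0 in E13.5 WT and 3218, 415 and 1188 in E11.5 WT. It was near 0 in E13.5 WT and high in every mutant library (7.21 ± 0.66, adjusted p in limma = 1.9e-06, 0.0011 without the 5 C libraries), and its difference from E11.5 WT did not pass (-1.01, adjusted p in limma = 0.30). Sp5, a direct target of WNT signalling, was 3.30 above E13.5 WT (adjusted p in limma = 0.0085, 0.071 without the 5 C libraries). Wnt8b and Sp5 also varied within E11.5 WT, where Wnt8b spread from 415 to 3218, so the extent of medial tissue in each dissection cannot be told apart from genotype.

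Among genes of other tissues, all 3 embryonic globins fell against E11.5 WT in the mutant and in WT. Their summed level was 68374, 50212 and 57878 in E13.5 cKO libraries A, B and C, against 78728, 123406 and 55289 in E13.5 WT and 198751, 305386 and 257151 in E11.5 WT. Of 12 meninges and mesenchyme genes 1 fell, of 12 endothelial and pericyte genes 1 rose and 3 fell, and of 10 microglia genes none was called by limma in E13.5 cKO against E11.5 WT, where 10.4% of all genes tested were called higher and 6.94% lower. Their part in the results above was not tested.

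Several genes with the greatest differences from E11.5 WT were not called against E13.5 WT. Nr1h5, a nuclear receptor gene, read 0, 0.978 and 0 in E13.5 cKO, against 0, 0.944 and 0 in E13.5 WT and 586, 460.0 and 507 in E11.5 WT. Aldoc, a glycolytic enzyme of astroglia, read 3672, 9476 and 7341 in E13.5 cKO, against 7903, 5361 and 6963 in E13.5 WT and 267, 498 and 438 in E11.5 WT, with a mutant rise of 4.03 ± 0.29 (adjusted p in limma = 1.9e-08). Neither gene was called against E13.5 WT. AI506816, a noncoding transcript, read 3713, 1891 and 2680 in E13.5 cKO, against 3494, 1804 and 2712 in E13.5 WT and 78.3, 31.5 and 43.8 in E11.5 WT, a rise of 5.77 ± 0.59. In E11.5 cKO it read 168, 2522 and 991, so it was not low in every library of the younger day. Rasgrf1, Kcnh3, Slc15a2, Chrm3 and Tacr1 rose by 4.30, 4.26, 3.97, 3.63 and 3.54 and were not called against E13.5 WT, while Csmd3 rose by 3.80 and was lower than in E13.5 WT, at a difference of -1.91. Bcan, which encodes brevican of the extracellular matrix, read 23.0, 426 and 291 in E13.5 cKO, against 65.3, 20.8 and 87.3 in E13.5 WT and 3.64, 6.49 and 0.974 in E11.5 WT. Its mutant libraries were unequal, with B and C above every E13.5 WT library and A within their range, and the rise from E11.5 WT was 5.14 ± 0.72 (adjusted p in limma = 5.5e-05). Eno1b, Masp2 and the predicted genes Gm13225 and Gm5855 were low in E11.5 WT only, and rose by 9.13, 4.76, 5.79 and 5.70 in the mutant. Eno1b read 3898, 1610 and 2409 in E13.5 cKO and 3815, 3324 and 4152 in E11.5 cKO, against 2089, 3036 and 896 in E13.5 WT and 3.64, 3.71 and 2.92 in E11.5 WT, and reads of its near-identical relative Eno1 may be counted there.

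Most of the other genes at the low end belonged to the ventral forebrain, apart from Apela, a secreted peptide, at -5.91 from E11.5 WT. Of 13 genes of the ventral forebrain and its interneurons, 11 fell against E11.5 WT (median -4.93, unchanged when Gsx2 is set to a floor of 3 reads over the mutant libraries), and 10 without the 5 C libraries. In WT 7 fell and 1 rose (median -1.21). The summed level of the list was 4089, 3691 and 3787 in E13.5 cKO and 4336, 3356 and 4142 in E11.5 cKO, against 4743, 7479 and 9041 in E13.5 WT and 10912, 12260 and 11488 in E11.5 WT, with every mutant library below every WT library. Gsx2, a patterning gene of the ganglionic eminences, read 0, 0 and 1.04 in E13.5 cKO, against 0, 94.4 and 59.2 in E13.5 WT and 409.5, 324 and 367 in E11.5 WT. Dlx2, a homeobox gene of ventral progenitors and interneurons, read 20.9, 25.4 and 16.6 in E13.5 cKO, against 72.1, 687 and 591 in E13.5 WT and 1504, 1777 and 1671 in E11.5 WT. It was low in E11.5 cKO as well, at 74.3, 24.7 and 38.6. Six3, a forebrain patterning factor, read 4.19, 0.978 and 1.04 in E13.5 cKO, against 0, 38.7 and 103 in E13.5 WT and 377, 443 and 459 in E11.5 WT. Isl1 and Vax1 were likewise close to 0 in every mutant library and not in E11.5 WT. Within E13.5 WT, library A was lowest in each of them, so the extent of ventral tissue in each dissection cannot be told apart from genotype or age for these genes.

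In 75 members the mutant lay outside both WT days, 21 above and 54 below, by a test that takes the larger p of E13.5 cKO minus E11.5 WT and E13.5 cKO minus E13.5 WT. Over all genes tested 0.44% were called, 0.12% above and 0.32% below. The quasi-likelihood test of edgeR on recovered reads called 77 such members, 21 above and 56 below (0.44% of all genes tested, 0.12% above and 0.32% below). The 5 C libraries bear heavily on this count, since without them limma called 3 members, 1 above and 2 below (0.0171% of all genes tested, 0.00571% above and 0.0114% below), and edgeR 2. In a limma fit with only the groups compared, none of the members was called and 311 had an unadjusted p below 0.05, so the calls rest on the spread estimated over all groups of the series. With single libraries left out, the count was between 38 (without E13.5 cKO C) and 116 (without E13.5 WT A). The 3 called by limma were Acsbg1, Pou3f4 and RP23-8I8.4, and the other genes named from the 75 were chosen after their values were seen.

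Of the 54 genes below both days, 16 changed between the WT days, of which 5 rose in WT and 11 fell. In 53 of the 54 the mean of E11.5 cKO was also below that of E11.5 WT. Likewise it was above it in 20 of the 21 genes above both days. Whether the direction was particular to the E13.5 mutant cannot be told from these counts. E11.5 WT entered the choice of the genes, which favours the same side in E11.5 cKO. These counts are a description and rest on the sign of the means, however small the difference. Sema3e, for 1, had means of 95.15 in E11.5 cKO and 95.98 in E11.5 WT. The POU class III transcription factors, which act in neural progenitors and in the making of upper-layer neurons, had 3 of 4 members below both days. Pou3f1 read 103, 89.0 and 75.8 in E13.5 cKO, against 370.0, 256 and 475 in E13.5 WT and 263, 403 and 360.2 in E11.5 WT. Pou3f2, also known as Brn2, read 912, 1604 and 1325 in E13.5 cKO, against 3663, 5302 and 4095 in E13.5 WT and 1928, 2777 and 2397 in E11.5 WT. Pou3f4 read 369, 262 and 313 in E13.5 cKO, against 702, 983 and 883 in E13.5 WT and 1097, 815 and 868 in E11.5 WT. In all 3 genes every E13.5 cKO library lay below every library of both WT days. The E11.5 cKO libraries were below every E11.5 WT library as well. They read 132, 75.2 and 117 for Pou3f1, 1206, 999 and 1113 for Pou3f2, and 332, 454 and 355 for Pou3f4. The differences from E11.5 WT were -1.92 ± 0.23, -0.91 ± 0.17 and -1.56 ± 0.15, and the adjusted p of limma for both days together was 0.0002, 0.015 and 5.7e-05 (0.083, 0.54 and 0.019 without the 5 C libraries). The fourth member, Pou3f3, was the most abundant and read 14478, 12967 and 13452 in E13.5 cKO, against 20882, 22829 and 20463 in E13.5 WT and 14431, 14837 and 14522 in E11.5 WT. It was not called against E11.5 WT (-0.10 ± 0.09, adjusted p in limma = 0.45) and was lower than in E13.5 WT (-0.65 ± 0.09, adjusted p in limma = 0.00015).

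Promoters of this family are shown because 3 of its 4 members were below both days. Pou3f1 is named only, so the promoters shown are those of 2 of the genes below both days, Pou3f2 and Pou3f4, and of Pou3f3. Each runs from 250 bases before to 50 after the start of the gene, from RefSeq on build GRCm38.p6, at chr4:22488317-22488616 on the minus strand for Pou3f2, chr1:42695518-42695817 on the plus strand for Pou3f3 and chrX:110814129-110814428 on the plus strand for Pou3f4. Capitals mark CCAAT boxes, written CCAAT, or ATTGG where the box is on the other strand.
Pou3f2: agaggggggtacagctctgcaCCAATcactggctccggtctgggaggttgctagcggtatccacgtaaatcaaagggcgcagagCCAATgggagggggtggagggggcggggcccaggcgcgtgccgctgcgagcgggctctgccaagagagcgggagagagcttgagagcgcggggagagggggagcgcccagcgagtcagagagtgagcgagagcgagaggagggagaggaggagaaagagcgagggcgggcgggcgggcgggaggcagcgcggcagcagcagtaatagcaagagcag
Pou3f3: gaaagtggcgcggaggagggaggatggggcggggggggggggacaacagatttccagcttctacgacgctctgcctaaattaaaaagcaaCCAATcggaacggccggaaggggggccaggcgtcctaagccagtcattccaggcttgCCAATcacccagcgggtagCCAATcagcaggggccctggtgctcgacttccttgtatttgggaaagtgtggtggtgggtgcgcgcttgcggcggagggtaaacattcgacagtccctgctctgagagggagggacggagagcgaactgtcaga
Pou3f4: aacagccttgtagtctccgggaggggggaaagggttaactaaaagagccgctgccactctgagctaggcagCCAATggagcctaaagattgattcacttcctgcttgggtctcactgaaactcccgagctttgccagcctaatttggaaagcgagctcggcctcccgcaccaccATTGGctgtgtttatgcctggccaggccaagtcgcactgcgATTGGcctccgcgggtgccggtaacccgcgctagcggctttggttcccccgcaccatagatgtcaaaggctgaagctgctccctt
The CCAAT box occurs 2 times in Pou3f2, 3 times in Pou3f3 and 3 times in Pou3f4, and 37.4% of 32851 promoters of this length hold at least 1. The GC content was 67.7%, 60.3% and 57.7%, with 24, 18 and 15 CpG, against medians of 52.7% and 7 over all promoters. None of the 3 holds TATAAA, found in 13.6% of promoters, or the octamer ATGCAAAT, found in 1.74%, on either strand. Pou3f3, which was not called below E11.5 WT, shares these features with Pou3f2 and Pou3f4, and a match is a description and not a site.

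The genes furthest below both days were Dlx6os1, Sp9, Dlx2, Dlx1 and Gad2, which belong with the ventral genes given last here. Other genes below both days included some of metabolism, the extracellular matrix and guidance. Acsbg1, a long-chain acyl-CoA synthetase of brain, read 191, 285 and 268 in E13.5 cKO, against 558, 825 and 699 in E13.5 WT and 754, 996 and 872 in E11.5 WT, a difference of -1.82 ± 0.15 from E11.5 WT (adjusted p of limma for both days 5.7e-05, 0.018 without the 5 C libraries). Thsd4, a secreted thrombospondin-repeat protein of microfibrils, read 129, 174 and 165 in E13.5 cKO, against 1526, 2253 and 1634 in E13.5 WT and 413, 600.1 and 508 in E11.5 WT. Thsd4 rises in WT between these days and stood in the mutant below even the younger level (-1.69 ± 0.23, adjusted p of limma for both days 0.00074, 0.088 without the 5 C libraries). Smoc1, a secreted calcium-binding matrix protein, read 83.8, 117 and 102 in E13.5 cKO, against 195, 257 and 225 in E13.5 WT and 324, 380.3 and 363 in E11.5 WT. Ndnf, a secreted neuron-derived factor, read 30.4, 41.1 and 29.1 in E13.5 cKO, against 74.96, 203 and 211 in E13.5 WT and 224, 234 and 249 in E11.5 WT. Foxp2, a forkhead factor of deep-layer neurons, read 251, 638 and 442 in E13.5 cKO, against 876, 1880 and 872 in E13.5 WT and 1030, 1421 and 1296 in E11.5 WT, and Ptch1, the Hedgehog receptor and a target of that pathway, read 378, 401 and 333 in E13.5 cKO, against 444, 764 and 940.1 in E13.5 WT and 1019, 963 and 982 in E11.5 WT. The mutant libraries of each of these genes lay below all 6 WT libraries. The semaphorin Sema3e and the netrin Ntn4 belonged to the same group, with differences from E11.5 WT of -1.45 and -0.65. Of the 54, 6 were on the ventral forebrain list, among them Dlx1, Dlx2, Dlx5 and Gad2. Other genes of interneurons or next to Dlx genes were also below both days, such as Slc32a1, which encodes the vesicular GABA transporter, Dlx6os1 and Dlx1as. Library A was the lowest of its group in E13.5 WT for 44 of the 54 genes (81.5%), Ndnf and Ptch1 included, against 25.5% of all members, so the limit on dissection given above is not confined to the ventral list.

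Among the genes above both days were a PRDM relative, 3 receptor subunits and 1 of 8 mitochondrial genome genes. Mecom encodes a zinc-finger regulator of the same family as Prdm16, and read 709, 953 and 782 in E13.5 cKO, against 227, 282 and 254 in E13.5 WT and 324, 262 and 269 in E11.5 WT. Every mutant library was well above every WT library (1.51 ± 0.22 from E11.5 WT, adjusted p of limma for both days 0.001, 0.14 without the 5 C libraries). Fhl1, a LIM-domain protein, read 10580, 9877 and 10282 in E13.5 cKO, against 6641, 5486 and 5497 in E13.5 WT and 3614, 4340 and 4020 in E11.5 WT. Itga6, an integrin subunit that binds laminin, read 7424, 8206 and 7843 in E13.5 cKO, against 4721, 5585 and 5225 in E13.5 WT and 4759, 3942 and 4312 in E11.5 WT. Rcan2, a calcineurin regulator, read 1961, 1818 and 1787 in E13.5 cKO, against 719, 931 and 812 in E13.5 WT and 1291, 1200 and 1303 in E11.5 WT, so that it falls with age in WT and was above both days in the mutant. The gene mt-Nd5, a mitochondrially encoded subunit of respiratory complex I, read 48759, 62704 and 56992 in E13.5 cKO, against 37139, 25416 and 26931 in E13.5 WT and 31278, 27218 and 28699 in E11.5 WT, a difference of 0.94 ± 0.14 from E11.5 WT. In all, 6 of 8 mitochondrial genome genes rose against E11.5 WT (median 0.628), with 2 rising without the 5 C libraries. The mitochondrial genome took 1.68%, 1.96% and 1.87% of reads in E13.5 cKO, against 1.13%, 1.10% and 0.988% in E13.5 WT and 0.938%, 1.29% and 1.17% in E11.5 WT. Its share was 1.52%, 0.784% and 1.27% in E11.5 cKO and 1.543%, 1.640% and 1.575% in E15.5 WT. It thus also varied between libraries of a group and between WT days.

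Some genes above both days were neighbours. Gabrg1, Gabra2 and Gabra4, subunits of the GABA-A receptor, lie in a row on chromosome 5 of GRCm38. Gabra2, at chromosome 5 from 70957597 to 71095849 on the minus strand, read 737, 843 and 779.9 in E13.5 cKO, against 275, 339.7 and 395 in E13.5 WT and 122, 163 and 117 in E11.5 WT. Gabrg1, at chromosome 5 from 70751047 to 70842617 on the minus strand, read 46.1, 31.3 and 24.9 in E13.5 cKO, against 1.92, 3.77 and 6.57 in E13.5 WT and 1.82, 6.49 and 4.87 in E11.5 WT, and Gabra4, at chromosome 5 from 71569749 to 71658308 on the minus strand, read 134, 227 and 191 in E13.5 cKO, against 99.9, 71.7 and 86.4 in E13.5 WT and 96.5, 70.5 and 90.5 in E11.5 WT. The next gene of the cluster, Gabrb1, did not follow at E13.5, with 20.9, 71.4 and 30.1 in E13.5 cKO, against 57.7, 56.6 and 69.5 in E13.5 WT and 22.8, 20.4 and 23.4 in E11.5 WT (adjusted p in limma = 0.19 against E11.5 WT and 0.12 against E13.5 WT). In E15.5 cKO Gabrb1 read 403, 338 and 355, against 188.5, 146 and 159 in E15.5 WT. That difference was 1.15 ± 0.35 (adjusted p = 0.09 in limma, 0.77 in limma without the 5 C libraries, and 0.032 in edgeR). On chromosome 7, the unclassified transcript RP23-8I8.4, at chromosome 7 from 73422250 to 73423902 on the plus strand, read 1298, 1177 and 1201 in E13.5 cKO, against 360.4, 304 and 459 in E13.5 WT and 383, 563 and 487 in E11.5 WT (adjusted p of limma for both days 7.2e-05, 0.045 without the 5 C libraries). It lies between Rgma and Chd2, and the noncoding genes A730056A06Rik and RP24-136L4.5 near it were also above both days. Neither Rgma nor Chd2 was called above both days, with differences from E13.5 WT of 0.33 and -0.41 (adjusted p in limma = 0.11 and 0.032). Rgma still read higher in every mutant library, at 8229, 5854 and 6776 in E13.5 cKO, against 5348, 5536 and 5518 in E13.5 WT and 4767, 3940 and 4016 in E11.5 WT. Its difference from E11.5 WT was 0.70 (adjusted p in limma = 0.0023, 0.09 without the 5 C libraries). A730056A06Rik is antisense and overlaps Rgma, and without a stated strand setting reads of overlapping genes cannot be assigned with certainty.

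**Figure D4:**
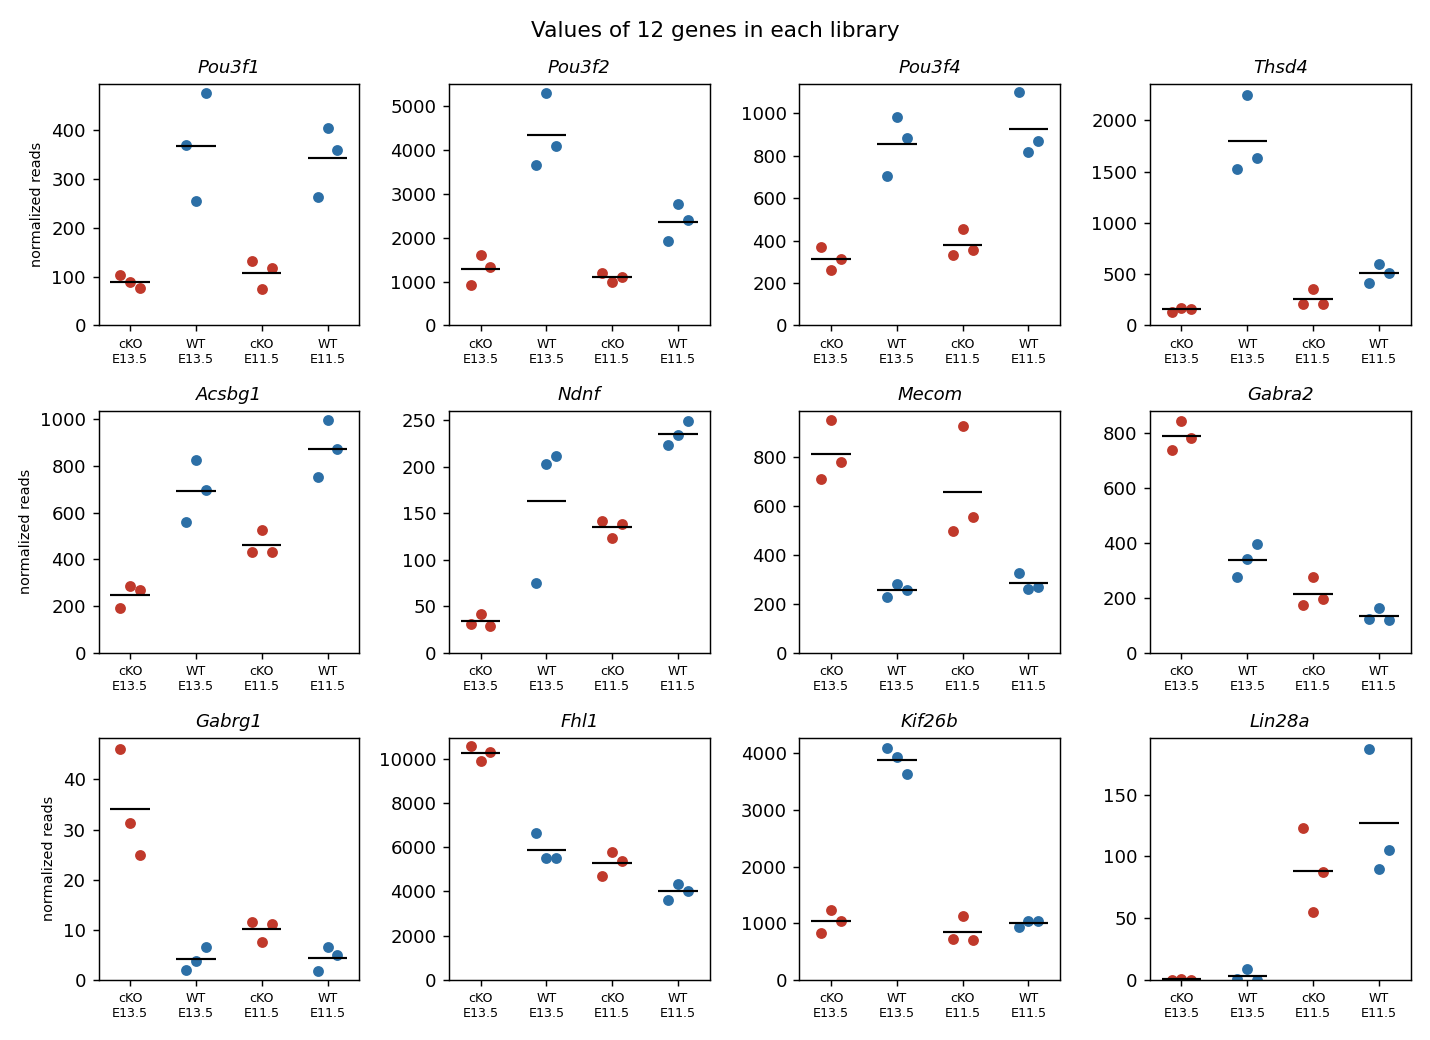
Normalized reads of 12 genes in each library, with bars for group means; each panel has its own linear axis from 0. Pou3f1, Pou3f2, Pou3f4, Thsd4, Acsbg1 and Ndnf are lowest in E13.5 cKO against both WT days, Mecom, Gabra2, Gabrg1 and Fhl1 highest, Kif26b stays near E11.5 WT, and Lin28a follows age.

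The E15.5 libraries come from other embryos and entered the choice of these genes only through the shared estimate of the spread. The same estimate serves the E15.5 test, so genes chosen with a small spread are more readily called there. The shares of all genes tested given below do not allow for that. Of the 21 genes above both days, 16 (76.2%) were called higher in E15.5 cKO than in E15.5 WT, where 0.833% of all genes tested were called higher, and their median difference was 1.10, against 0.0406 over all members. All 21 differences were positive, as were 62.8% of those of all members. When the 5 C libraries were left out, 9 of the 21 were called, where 0.16% of all genes tested were called higher. Of the 54 genes below both days, 8 (14.8%) were called lower at E15.5, where 1.68% of all genes tested were, and 30 had a negative difference, with a median of -0.038. When the 5 C libraries were left out, 2 of the 54 were called, where 0.0628% of all genes tested were called lower. The genes above both days thus kept their direction at E15.5 more often than those below, a difference that was not itself tested.

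Single genes show the range. Gabra2 read 1363, 1476 and 1461 in E15.5 cKO, against 332, 309.8 and 308 in E15.5 WT (2.17 ± 0.19, adjusted p in limma = 1.1e-06). Mecom read 222, 188 and 225 in E15.5 cKO, against 60.6, 110.0 and 83.5 in E15.5 WT (adjusted p in limma = 0.0013, 0.14 without the 5 C libraries). Smoc1 read 155, 209 and 141 in E15.5 cKO, against 1060, 1025 and 1011 in E15.5 WT (-2.63 ± 0.16, adjusted p in limma = 3.8e-09). In each of these the genotypes did not overlap. Thsd4 read 410.0, 264 and 355 in E15.5 cKO, against 1208, 1696 and 1514 in E15.5 WT, and Pou3f4 differed by -0.58 ± 0.15 (adjusted p in limma = 0.042, 0.59 without the 5 C libraries). Pou3f1 and Pou3f2 were not called (-0.68 and -0.52, adjusted p in limma = 0.15 and 0.14). Dlx2 read 380.3, 442 and 338 in E15.5 cKO, against 399, 288 and 346 in E15.5 WT, so the genotypes overlapped for this ventral gene. Libraries B and C of E15.5 WT held many reads of epidermal and meningeal genes, and their summed meninges level was 127284 and 62922, against 2345 in library A. The E15.5 results above include these 2 libraries. Without them only library A is left in E15.5 WT, so no count of called genes is given for that setting.

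**Figure D5:**
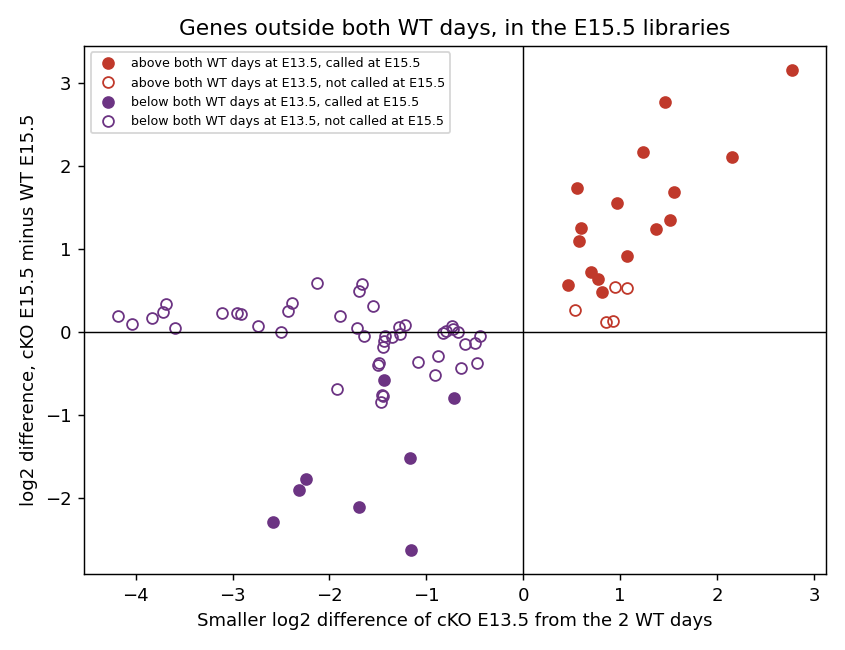
The 75 genes outside both WT days: the smaller of the differences of E13.5 cKO from the WT days (horizontal) and the difference of E15.5 cKO from E15.5 WT (vertical), both log2. Filled points are called at E15.5, which was so for 16 of the 21 genes above and 8 of the 54 below.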

How the data were processed

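RNA-seq of 24 libraries (8 groups of 3) was deposited as one table. Its signal values are gene read counts that the authors divided by size factors; per the submitters' processing notes the tools include DESeq 1.22.1 and HTSeq 0.5.3, besides STAR 2.5.0a and cutadapt 1.6, with the mm10 (GRCm38) build. No annotation or strand setting is named there. Whole reads could be recovered for 100% of values within 0.01, giving 25639836 to 38879931 reads per library. Library letters A to C are from the column names; those of E13.5 WT also carry a 2 whose meaning is not given.

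The main test was limma 3.58.1 (R 4.3.3) on log2(value + 1), with 1 spread over all groups, Benjamini-Hochberg adjustment over 17518 genes, and a threshold of 0.05. edgeR 4.0.16 and DESeq2 1.42.0 on the recovered counts, other scalings, filters and pseudocounts, and fits without single libraries, without the 5 C libraries or with the letter as a block were alternatives. The test was checked on simulated data with independent libraries, so the check does not cover C libraries that lie near a sum of A and B. A gene lay outside both days when both differences had 1 sign and the larger p passed. Of 22529 identifiers, 22411 (99.5%) matched GENCODE M21; 25 symbols had become dates and 13 were shared, so these were kept by identifier. Members, lists and tests were chosen with earlier results of these data known. By rule, the genes named were Prdm16, the 10 highest and 10 lowest differences of E13.5 cKO from E11.5 WT called also without the C libraries, with a mean of at least 50 and no overlap, the held and reached genes that changed most in WT, those called outside both days in both fits, and up to 4 of each list; Gm and Rik names were passed over. Others, among them Gm13225, Gm5855, Tacr1 and Wnt8b, were chosen after their values were seen. Eno1b, Dlx6os1 and Dlx1as share reads or strands with other genes and are uncertain.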

Additional observations from a re-analysis of the deposited data

Results flagged for a closer look

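The change between E11.5 and E13.5 differed between the genotypes in 47 of the 15854 members, by limma's test of that difference (change in cKO minus change in WT, log2, Benjamini-Hochberg adjusted p), 25 with a positive and 22 with a negative difference. The genes below are those among the named genes and the genes outside both days. The difference was -9.26 for Eno1b (adjusted p = 8.27e-11), -3.78 for Masp2 (1.65e-06), -5.89 for Gm13225 (9.56e-07) and -5.30 for Gm5855 (5.04e-07), all low in E11.5 WT alone. It was -2.50 for Thsd4 (0.000548), -1.66 for Kif26b (0.00531), -0.856 for Ap3b2 (0.0167) and -0.950 for Slc27a1 (0.00465). It was 5.97 for Wnt8b (0.00465), 0.779 for Rcan2 (0.0136), 1.29 for RP23-8I8.4 (0.00726), 1.11 for mt-Nd5 (0.0146), 2.08 for Olig2 (0.0131) and 3.50 for Olig1 (0.0374). Olig2, a factor of ventral and oligodendrocyte progenitors, read 9.43, 15.6 and 15.6 in E13.5 cKO and 17.9, 20.9 and 20.3 in E11.5 cKO, against 28.8, 59.5 and 53.5 in E13.5 WT and 279, 294 and 274 in E11.5 WT. The difference was -1.73 for Hba-a1 (0.0374), an adult globin.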

How the results depend on the processing

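Counts in this paragraph are of genes called. For E13.5 cKO minus E11.5 WT (2880), the count was 988 when only the groups compared were fitted, 633 without the 5 C libraries, 642 in edgeR without them, 989 at a log2 difference of at least 1, and 1763 to 4913 with single libraries left out. For E13.5 WT minus E11.5 WT (9106) it was 2501 at a difference of at least 1 and 7581 to 9514 with single libraries left out. For E13.5 cKO minus E13.5 WT (3759) it was 624, 445, 321, 597 and 1492 to 5589 in the order used for the first comparison. For genes outside both days (75) it was 0 with only the groups compared (limma), 3 without the 5 C libraries, 2 in edgeR without them, 122 in DESeq2, and 38 (without E13.5 cKO C) to 116 (without E13.5 WT A). Genes held (1580) numbered 1022 without the C libraries, 845 with a 2-fold bound and 794 (without E13.5 cKO A) to 2723 (without B); genes that reached E13.5 (973) numbered 582, and 560 (without B) to 2004 (without A). Genes outside both days and called the same way at E15.5 (24) numbered 0 with only the groups compared, 1 without the C libraries, 0 in edgeR without them, 13 at a difference of at least 1, 11 with the E15.5 test alone run without the C libraries, and 14 to 26 with single libraries left out. The mean position (0.610) was 0.363 on a line to E15.5 WT, a scale on which 1 stands for E15.5 WT. On that line the E13.5 WT libraries A, B and C stood at 0.600, 0.503 and 0.692. With single libraries left out, the mean position on the line to E13.5 WT was 0.496 to 0.731. Why the counts moved was not tested. With the letter as a replicate block the counts were 2798, 9065, 3655, 71, 23 (E15.5), 1544 and 975. Same-letter libraries of E13.5 cKO and E11.5 WT did not deviate together (correlations -0.016, -0.082 and 0.079), so no pairing by letter was seen. With C near a sum of A and B in both groups, these correlations cannot decide whether the letters pair. The position has no test and was not fitted with a block. With 3 libraries a group, of which C may add no separate embryos, small differences were not detectable.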
